A study of Mus musculus with 20 samples.

Results

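The first cleavage of mouse embryos labelled Btg4-/- was followed by comparing 2 RNA-seq libraries of 2-cell embryos with 2 libraries of zygotes, 4 of the 20 libraries in the series. All genes with a mean of at least 1 FPKM (fragment number scaled to transcript length and library size) in either group were taken. This left 10277 of 23309 gene symbols: 8273 reached that level at both stages, 1132 in the zygote only and 872 in the 2-cell embryo only. At the edge of the rule, Hspa13 stood at 1.00001 and Bhlhe41 at 1.00044 FPKM just inside, and 1110032A03Rik at 0.999624 and Rpgrip1l at 0.998918 FPKM just outside.

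The series asked how maternal mRNA is removed when Btg4 is missing, and sampled the germinal vesicle (GV) oocyte, the mature metaphase II (MII) oocyte, the zygote and the 2-cell embryo, in Btg4-/- and wild type with 2 libraries each. The 4 further libraries come from an Erk experiment in oocytes and were not used here. All groups used here are of the ICR strain: females aged 21 to 23 days, Btg4-/- or wild type, were injected with PMSG and hCG, hormones that induce follicle growth and ovulation, and mated where embryos were wanted. Each library pooled 60 oocytes or embryos. The labels give neither the allele nor the father's genotype, nor whether the 2 libraries of a group came from different females. P-values therefore refer to the spread among these libraries, part or all of which may be technical. They also do not say how mRNA was purified; where it is captured by its tail, a change in amount and a change in tail length cannot be told apart in FPKM.

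The fully grown oocyte stops transcription, and development up to the 2-cell stage runs on stored mRNA. BTG4 is an adaptor that brings the CCR4-NOT deadenylase to mRNAs during oocyte maturation, and deadenylated mRNAs are degraded. Other stored mRNAs are kept with short tails and are lengthened again by cytoplasmic polyadenylation, which needs a U-rich element near the 3′ end. In the mouse the major wave of transcription from the embryo's own genome falls at the 2-cell stage, and the maternal mRNA left over is cleared at about the same time.

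The FPKM values added up to 424727 and 408430 in the zygote libraries and to 453813 and 441998 in the 2-cell libraries, and 9042 to 9373 genes reached 1 FPKM in each. The files give no read counts, so the depth of each library is unknown. Pearson r across all genes on the log2(FPKM + 1) scale was 0.980 between the zygote libraries, 0.959 between the 2-cell libraries, and 0.833 to 0.844 between the stages. The 2-cell libraries correlated with those of wild-type 2-cell embryos at 0.769 to 0.788, below their 0.807 to 0.840 with labelled Btg4-/- oocytes and their 0.806 to 0.839 with wild-type oocytes and zygotes. Genes are not independent replicates, so these values describe the libraries. Oocyte markers were present at both stages, and markers of other cells are given further on.

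The targeted gene was measured first. Btg4 (chromosome 9, 50924106 to 50927805, mm9) stood at 139 and 164 FPKM in the zygote and at 3514 and 3632 FPKM in the 2-cell embryo (log2 change 4.55, SE 0.12, limma adjusted p = 6.11e-11). In wild type its mean went from 585 to 1055 FPKM (log2 change 0.85), and the difference between the genotypes' changes was 3.71 (adjusted p = 8.23e-09). In the labelled Btg4-/- oocytes it had been at 1930.4 FPKM at GV and at 181 at MII. A deletion of one part of a gene can leave its gene-level value high, and the transcript was not low in the 2-cell libraries labelled Btg4-/-. The groups are therefore called by their labels throughout, and every direction given here is one between labelled groups.

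**Figure D1:**
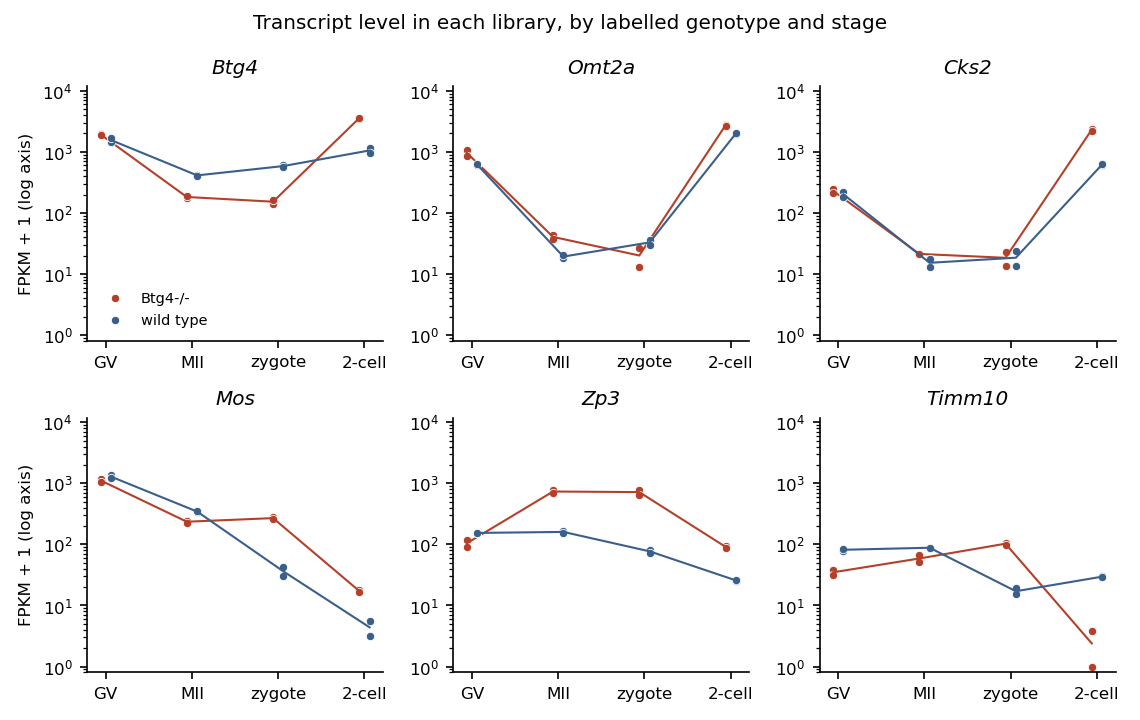
FPKM + 1 on a log axis in each library (points; lines join the means of 2 libraries) for each of the 4 stages, in libraries labelled Btg4-/- (red) and wild type (blue). Btg4, Omt2a and Cks2 were low at MII and in the zygote and high at GV and 2-cell in both genotypes, whereas Mos, Zp3 and, in the labelled Btg4-/- libraries, Timm10 were lower at 2-cell than in the zygote.

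Between zygote and 2-cell, 2219 of the 10277 genes rose (21.6%) and 3435 fell (33.4%) in the labelled Btg4-/- libraries, and 4623 did not pass (limma on log2(FPKM + 1), adjusted p below 0.05 over 12311 genes). At least a 2-fold change was reached by 1655 of the risen genes (16.1% of all) and 2473 of the fallen (24.1%). In 30.8% of all genes both 2-cell libraries lay above both zygote libraries, and in 47.1% below. The median gene changed by -0.31. With median-of-ratios scaling of the libraries that median was -0.14, a shift of 0.17, and the share of rises among the called genes was 47.6% against 39.2% as deposited. Quantile normalization gave 46.5%. List medians below are therefore set beside the -0.31 of all genes, and the rises and falls counted in a list beside the 21.6% and 33.4% of all genes. Without any 1 of the 4 libraries, between 1833 and 2094 genes rose and between 2678 and 2974 fell. A change in FPKM is a change in a transcript's share, so fewer embryos in a state and less RNA per embryo cannot be told apart.

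The largest rises were in transcripts that were also abundant at GV. Omt2a and its neighbour Omt2b, oocyte maturation genes on mouse chromosome 9, led the comparison. Omt2a (chromosome 9, 78159779 to 78162604, mm9) rose from 25.9 and 12.2 FPKM to 2775 and 2684 FPKM (log2 change 7.18, SE 0.24, adjusted p = 4.23e-10). Omt2b rose from 42.3 and 39.3 FPKM to 6006 and 5787 FPKM (log2 change 7.14, adjusted p = 2.22e-13). The copies are similar in sequence, and the split of fragments between them is uncertain. Cks2, whose small protein binds cyclin-dependent kinases, rose from 22.2 and 12.6 FPKM to 2409.6 and 2213 FPKM (log2 change 7.02, SE 0.27, adjusted p = 1.01e-09). In all of these both 2-cell libraries stood far above both zygote libraries.

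Other large rises touched transcription, chromatin, the ribosome and membrane anchors. Gtf2a2, a subunit of the general transcription factor TFIIA, rose from 2.55 and 6.97 FPKM to 326 and 305 FPKM (log2 change 5.89, adjusted p = 5.78e-08). Dpy30, a core subunit of the histone H3K4 methyltransferases, went from 33.2 and 22.4 FPKM to 1135 and 1086 FPKM (log2 change 5.29, adjusted p = 2.83e-09). Mphosph6, an exosome-associated factor of rRNA processing, went from 26.6 and 45.6 FPKM to 1946 and 1739.6 FPKM (log2 change 5.68, adjusted p = 2e-09). At GV they lay between their zygote and 2-cell levels, Gtf2a2 at 164, Dpy30 at 687 and Mphosph6 at 383 FPKM. Rps27l, a paralogue of a ribosomal protein gene, rose from 50.7 and 26.9 FPKM to 1826 and 1866 FPKM (log2 change 5.6, adjusted p = 2e-09). Pigp, of the enzyme that starts glycosylphosphatidylinositol anchors, rose from 1.88 and 3.75 FPKM to 140.4 and 162 FPKM (log2 change 5.36, adjusted p = 5.72e-08). For Tcl1b3, a member of the Tcl1 family of AKT coactivators with close copies, the values were 7.52 and 7.32 FPKM in the zygote and 483 and 504 FPKM in the 2-cell embryo (log2 change 5.88, adjusted p = 1.13e-07). Smim11, a small membrane protein gene, stood at 0.489 and 5.58 FPKM in the zygote and 378 and 329 FPKM in the 2-cell embryo (log2 change 6.82, adjusted p = 1.49e-06), with zygote values that differ more between the libraries than those of the other genes. The rule that named these genes required stages that do not overlap.

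The 10 largest falls by the naming rule were led by Timm10, Tmem39b and Ttc5. Timm10 (chromosome 2, 84667178 to 84670370, mm9), a chaperone of protein import into mitochondria, was at 105 and 98.5 FPKM in the zygote and at 2.78 and 0 in the 2-cell embryo (log2 change -5.72, SE 0.42, adjusted p = 3e-07). Mrps36, named as a mitoribosomal protein gene, fell from 143 and 146 FPKM to 3.94 and 6.36 FPKM (log2 change -4.59, adjusted p = 2.78e-05). Xrcc1, the scaffold of single-strand break repair, fell from 28.7 and 24.9 FPKM to 0.279 and 1.1 FPKM (log2 change -4.08, adjusted p = 1.94e-06). At 2-cell, Timm10 and Xrcc1 had come down to about the 1 FPKM that the rule asks for. Bub1b, which encodes the checkpoint kinase BUBR1, fell from 225 and 234 FPKM to 10.1 and 9.03 FPKM (log2 change -4.45, SE 0.11, adjusted p = 6.11e-11). Arl2, a GTPase of tubulin folding, fell from 66.7 and 69.7 FPKM to 3.85 and 2.7 FPKM (log2 change -4.03, adjusted p = 1.26e-06).

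The others were an adaptor, a protease inhibitor and the pair that followed Timm10 in size. The adaptor gene Nck1 fell from 52.6 and 71 FPKM to 1.47 and 3.57 FPKM (log2 change -4.21, adjusted p = 5.64e-07). Spint1, a membrane inhibitor of serine proteases, fell from 47.5 and 54.5 FPKM to 3.07 and 0.943 FPKM (log2 change -4.21, adjusted p = 1.5e-07). Ttc5, a cofactor of the p53 response that also acts in tubulin mRNA decay, fell from 49.3 and 52.9 FPKM to 1.29 and 0.506 FPKM (log2 change -4.81, adjusted p = 3.86e-08). Tmem39b, a membrane protein gene, fell from 36.8 and 42 FPKM to 0.792 and 0 FPKM (log2 change -4.91, adjusted p = 4.87e-07). All of these genes were above 20 FPKM in both zygote libraries and below 4 FPKM in both 2-cell libraries.

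Levels in the oocyte were then taken for the genes that changed. The GV and MII libraries take no part in the contrast that chose them and enter only through the shared variance of the fit. MII levels are still tied to the choice. The zygote libraries correlated at 0.951 to 0.959 with those of MII and at 0.795 to 0.805 with those of GV. Genes chosen for a low or high zygote level therefore tend to be low or high at MII as well, so these shares describe the sets and test nothing. Of the 1655 genes that rose at least 2-fold, 1431 (86.5%) were already at 1 FPKM or more at GV, close to the 85% of the genes that fell and above the 78.6% of all genes. In 1076 of them (65.0%) both MII libraries lay below both GV libraries, against 29.6% of all 10277 genes, and in 265 (16%) both lay above, against 47.9%. Their median level was 10.7 FPKM at GV, 4.30 at MII, 4.19 in the zygote and 20.6 at 2-cell. For the 2473 genes that fell at least 2-fold the order was the other way: 1586 (64.1%) were higher at MII than at GV and 455 (18.4%) lower, with medians of 6.68, 13.3, 16 and 4.16 FPKM. Over all genes the medians were 4.73, 5.96, 7.11 and 6.04 FPKM. With median-of-ratios scaling these shares were 71.5% of the risen genes lower at MII (38.6% of all) and 54.8% of the fallen genes higher (38.2% of all). The sets were chosen on the labelled Btg4-/- step. In wild type the risen set had medians of 11.1, 10, 11.1 and 18.8 FPKM and the fallen set 8.44, 5.87, 8.71 and 4.76.

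**Figure D2:**
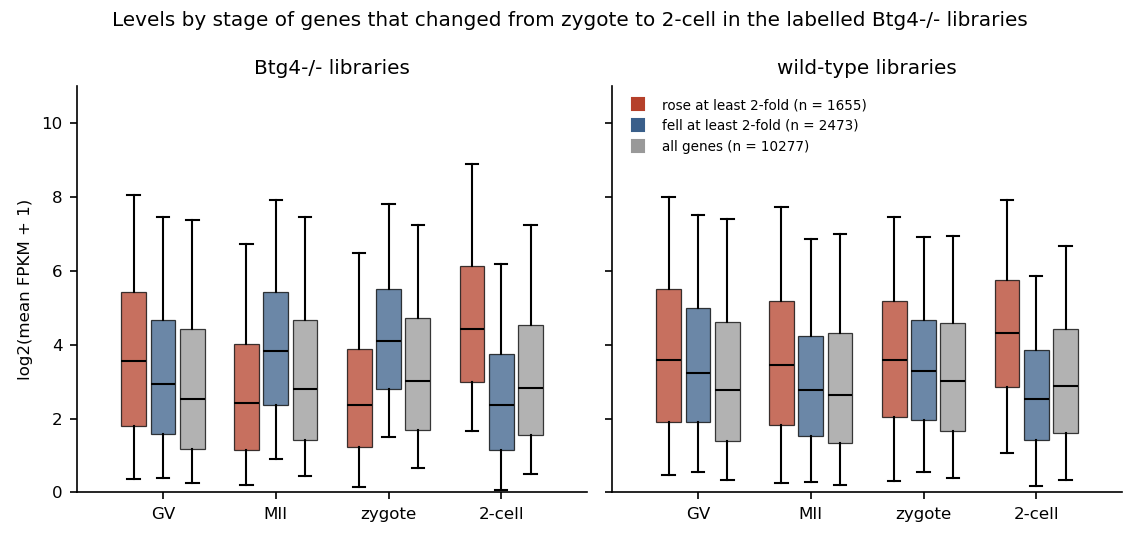
log2(mean FPKM + 1) at each stage of genes that rose (red) or fell (blue) at least 2-fold from zygote to 2-cell in the labelled Btg4-/- libraries, and of all 10277 genes (grey); lines are medians, boxes the middle 50% and whiskers the 5th to 95th percentile of genes. The zygote and 2-cell levels on the left chose the sets. On the left the risen set lies above the fallen set at GV and below it at MII, where levels follow those of the zygote closely.

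Sequences at the 3′ end also differed between the sets. The cytoplasmic polyadenylation element was searched as TTTTAT or TTTTAAT on the sense strand in the last 100 bases of 1 GENCODE M21 transcript (GRCm38) per coding gene, among transcripts with AATAAA or ATTAAA in the last 40 bases. This search was chosen after the values were seen. The element was found in 469 of 1328 risen genes (35.3%), 229 of 1683 fallen genes (13.6%) and 1533 of all 7554 genes with a signal (20.3%), beside 18.2% of all symbols of the files. The median A and T content of these ends was 69% in risen, 61% in fallen and 65% in all genes. Within bins cut at the quartiles of A and T content, from low to high, the median log2 change was -0.18, -0.06, 0.31 and 0.51 with the element. Without it the medians were -0.74, -0.37, -0.01 and 0.25. The bins are unequal, with 110, 253, 461 and 709 genes that have the element and 1978, 1554, 1386 and 1103 that do not. The 30 bases that end with the polyadenylation signal are shown for risen genes described here that carry the element in them, with the element and the signal in capitals.
Omt2a: tggggttttaacggTTTTATaataAATAAA
Cks2: tgTTTTATtttacctgttttgttaAATAAA
Pigp: caactgagtTTTTAATtgacaataAATAAA
Cnot7: aagtcttaaggtacaTTTTATatcAATAAA
Lsm14a: ttgtgtTTTTAATaaaggccatggAATAAA
Bcl2l10: catTTTTAATaacttcaaattcttAATAAA
Rps2: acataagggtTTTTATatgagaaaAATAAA
Mitd1: ttTTTTATaatgtatgaatttaacAATAAA
Ndufab1: tTTTTATtaacaataaattcaatgAATAAA

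An element in this window did not go with a rise in every gene, and many risen genes lack it there. Among the largest rises, Mphosph6, Dpy30 and Tcl1b3 have the signal but no element in the last 100 bases. Gtf2a2 and Rps27l have an element in the last 100 bases but not in the 30 that end with the signal. Bub1b and Gdf9 fell and carry an element, and Timm10, Arl2 and Xrcc1 fell and have only the signal in the 30 bases shown.
Bub1b: ctctcctttcactgtgtaTTTTATAATAAA
Gdf9: tgctgtggTTTTATgtgacggaagAATAAA
Timm10: tatgtgtgtatatgtatatatcttATTAAA
Arl2: gcctcgcctcggtccagcagtgagAATAAA
Xrcc1: acacgtgtgtacacacaagagtttAATAAA

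Promoter motifs were counted in the same sets. In RefSeq promoters (GRCm38.p6, 250 bases before to 50 after the start, both strands; 7642 genes matched), TATAAA was found in 7.25% of risen and 6.74% of fallen genes, against 7.20% of the matched genes and 14.2% of all 27025 promoters. CCAAT was in 38.2% and 42.9% (40.3% and 37.9%), and GGGCGG, the GC box, in 65.1% and 62.0% (63.9% and 35.9%). Median transcript length was 2724 bases in risen and 2678 in fallen genes. The median length after the stop codon differed, at 1164 bases in risen, 669 in fallen and 1008 in all genes. So did the share of coding genes with the polyadenylation signal, at 84.4%, 70.1% and 76.9%. Whether these differences bear on the shares with the cytoplasmic polyadenylation element was not tested.

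**Figure D3:**
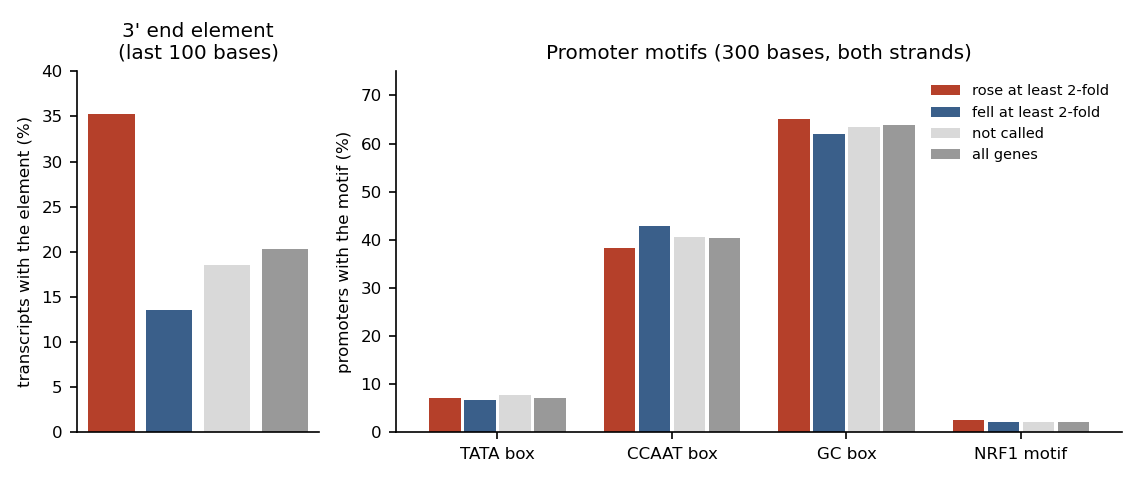
Share of transcripts with the cytoplasmic polyadenylation element in the last 100 bases (left) and of promoters with each of 4 motifs (right), for genes that rose or fell at least 2-fold from zygote to 2-cell in the labelled Btg4-/- libraries, genes not called and all genes. The share with the element was 35.3% in risen and 13.6% in fallen genes, while the promoter shares of these sets lie within 5 percentage points of each other.

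Deadenylases and their adaptors were among the genes that changed. Of 18 members of the CCR4-NOT and BTG/TOB list, 8 rose, Btg4 among them, and 4 fell, with a median of 0.18. The catalytic subunit genes Cnot7 and Cnot8 rose, Cnot7 from 40.7 and 38.6 FPKM to 250.3 and 253 FPKM (log2 change 2.64, adjusted p = 5.54e-09) and Cnot8 from 12.9 and 7.54 FPKM to 46.3 and 41.2 FPKM (log2 change 2.04, adjusted p = 2.02e-05). Cnot6l, the other kind of catalytic subunit, rose from 52.5 and 63 FPKM to 123 and 144 FPKM (log2 change 1.19, adjusted p = 6.02e-05), while in wild type its mean fell from 289.6 to 146 FPKM (difference 2.18, adjusted p = 7.74e-06). Btg2, an adaptor and p53 target, rose from 2.25 and 2.82 FPKM to 14.8 and 7.91 FPKM (log2 change 1.75, adjusted p = 0.0011). The members that fell were the scaffold gene Cnot1 (13.2 and 14.2 FPKM in the zygote and 6.75 and 6.75 FPKM in the 2-cell embryo), Cnot10 (8.98 and 5.97 FPKM in the zygote and 2.74 and 3.85 FPKM in the 2-cell embryo), Cnot11 (120.4 and 109 FPKM in the zygote and 55.5 and 62.7 FPKM in the 2-cell embryo) and the adaptor gene Btg1 (3.28 and 2.57 FPKM in the zygote and 0.943 and 1.29 FPKM in the 2-cell embryo). Adjusted p was 0.0119, 0.0217, 0.000514 and 0.0124 in that order by limma. Cnot10 did not pass in fits on the 8 zygote and 2-cell libraries (adjusted p = 0.0603) and on the 4 libraries alone (0.103). Btg1 did not pass in the latter (0.0661). The call on Cnot1 ended without zygote library 2 (adjusted p = 0.0654), that on Cnot10 without zygote library 1 (0.169) or 2-cell library 1 (0.124) or with either scaling (0.0518 and 0.0641), and that on Btg1 without these (0.0871 and 0.0647).

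Other factors of mRNA decay and of the poly(A) tail had 11 rises and 19 falls among 50 and a median of -0.33. These shares, 22% and 38%, are near the 21.6% and 33.4% of all genes, so the list as a whole does not stand out. Lsm1, of the ring that promotes decapping, rose from 0.917 and 0.41 FPKM to 23.2 and 32 FPKM (log2 change 4.1, adjusted p = 7.63e-08). Papd4, the cytoplasmic poly(A) polymerase GLD-2, rose from 1.78 and 1.17 FPKM to 21.5 and 22.1 FPKM (log2 change 3.22, adjusted p = 1.16e-07). Lsm14a, a translational repressor of P-bodies, rose from 21.6 and 23.3 FPKM to 174 and 203 FPKM (log2 change 3.01, adjusted p = 1.58e-08). All of these were high at GV and low at MII, as Papd4 with 11.3 and 1.7 FPKM. Pabpn1l, the oocyte's nuclear-type poly(A)-binding protein, rose from 212 and 191 FPKM to 440.0 and 406 FPKM (log2 change 1.07, adjusted p = 7.81e-05), while in wild type it went from 195 to 17.6 FPKM (difference 4.48, adjusted p = 1.26e-08). Patl2, an oocyte repressor of translation, fell from 29.2 and 25.2 FPKM to 2.2 and 2.45 FPKM (log2 change -3.08, adjusted p = 2.5e-07), and Papolg, a nuclear poly(A) polymerase, fell from 19.4 and 29.8 FPKM to 2.44 and 2.51 FPKM (log2 change -2.85, adjusted p = 3.71e-06).

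Dormant maternal mRNAs, silent in the GV oocyte and taken up by ribosomes as it matures, rose in 16 of 26 cases, the highest share among the lists other than cell markers, with 6 falls and a median of 0.83. In wild type the median of the same members was -0.28. Hprt, an enzyme of purine salvage, rose from 14 and 9.63 FPKM to 277 and 248 FPKM (log2 change 4.38, adjusted p = 1.72e-08). Further members, chosen after their values were seen, show the range. Ccna2, the S-phase cyclin, rose from 10.2 and 12.2 FPKM to 71.9 and 84.2 FPKM (log2 change 2.69, adjusted p = 4.37e-08), and Slbp, which binds the stem loop of histone mRNAs, from 59.7 and 62.8 FPKM to 484 and 488 FPKM (log2 change 2.97, adjusted p = 1.72e-09). Slbp fell in wild type from a mean of 766 to 152 FPKM. Dazl, a germ-cell translation regulator, stood at 96.7 and 116 FPKM in the zygote and 98.9 and 103 FPKM in the 2-cell embryo and did not pass (adjusted p = 0.762), nor did Tet3, the dioxygenase of 5-methylcytosine, at 32.1 and 27.4 FPKM in the zygote and 32.2 and 29.6 FPKM in the 2-cell embryo (adjusted p = 0.838). In wild type Dazl and Tet3 fell, with log2 changes of -3.23 and -1.6 (differences between genotypes 3.16, adjusted p = 3.62e-07, and 1.66, adjusted p = 0.000114).

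Genes of the zona pellucida and of secreted oocyte factors divided sharply. Of 13, 4 rose and 7 fell. Gm97, an Oosp family gene, rose from 70.3 and 63.9 FPKM to 6043 and 5528 FPKM (log2 change 6.41, SE 0.14, adjusted p = 2.68e-11). Its neighbour in the family, Oosp1, rose from 284 and 238 FPKM to 5145 and 5063 FPKM (log2 change 4.29, adjusted p = 1.66e-10), and Plac1l from 404 and 448 FPKM to 899 and 990.2 FPKM (log2 change 1.15, adjusted p = 0.000242). At GV these genes had been at 10318, 9735 and 295 FPKM. In wild type Gm97 fell from a mean of 1033 to 446 FPKM, and the difference of the changes was 7.61 (adjusted p = 2.65e-10). Kit, the oocyte's receptor for KIT ligand, was the other member that passed as higher (10.1 and 12.9 FPKM in the zygote and 16.9 and 17.2 FPKM in the 2-cell embryo, adjusted p = 0.0154). Kit did not pass in a fit on the 4 libraries alone (adjusted p = 0.0852). The call also ended without zygote library 1 (log2 change 0.38) or 2-cell library 2 (0.53).

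Transcripts of egg coat genes were among the falls. Zp2 fell from 1142 and 1052 FPKM to 159.8 and 163 FPKM (log2 change -2.76, adjusted p = 8.73e-09), and Zp3 (chromosome 5, 136455975 to 136464494, mm9), the gene of a further coat protein, from 792 and 644 FPKM to 94.4 and 86.3 FPKM (log2 change -2.97, SE 0.14, adjusted p = 8.71e-09). Astl, the protease that hardens the coat after fertilization by cutting ZP2, fell from 522 and 471 FPKM to 39.1 and 30.2 FPKM (log2 change -3.81, adjusted p = 8.16e-09). Zp2 did not pass in wild type, where its mean was 55.1 FPKM in the zygote and 58.2 at 2-cell, and the difference of the changes was -2.83 (adjusted p = 2.34e-07). Fgf8, a growth factor that acts on cumulus cells, fell from 129.8 and 129.7 FPKM to 15.7 and 16 FPKM (log2 change -2.96, adjusted p = 1.25e-07). Gdf9, a growth factor of the oocyte, fell from 2279.7 and 2054 FPKM to 1117 and 1001 FPKM (log2 change -1.03, adjusted p = 1.47e-05).

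Maternal effect genes, whose products the embryo needs before its own genome acts, fell in 29 of 55 cases and rose in 12, with a median of -0.71. In wild type their median was -1.60, and 29 of the 55 had a higher and 6 a lower change in the labelled Btg4-/- libraries by the interaction test, against 25% and 23.7% over all genes. Khdc3, of the subcortical maternal complex, fell from 2047 and 1828 FPKM to 263 and 289 FPKM (log2 change -2.81, adjusted p = 8.09e-08). Nlrp5, the MATER protein of that complex, fell from 133 and 176 FPKM to 30.3 and 30.1 FPKM (log2 change -2.3, adjusted p = 3.45e-05). Dnmt1, the maintenance DNA methyltransferase, fell from 41.7 and 54.5 FPKM to 5.99 and 7.38 FPKM (log2 change -2.67, adjusted p = 2e-06). Among the rises were Yap1, the Hippo pathway coactivator (49 and 43.8 FPKM in the zygote and 244 and 232 FPKM in the 2-cell embryo, log2 change 2.34, adjusted p = 1.19e-08), and Bcas2, of the spliceosome (6.21 and 6.4 FPKM in the zygote and 63.3 and 64.8 FPKM in the 2-cell embryo, log2 change 3.15, adjusted p = 4.42e-06). Both also rose in wild type, with log2 changes of 2.42 and 3.46.

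Cell cycle genes changed in both directions. Of 51 meiotic and mitotic regulators, 15 rose and 24 fell (median -0.38). Mad2l1, a spindle checkpoint protein, rose from 7.11 and 7.46 FPKM to 329 and 289 FPKM (log2 change 5.22, adjusted p = 1.66e-10). Sycp3, of the synaptonemal complex, rose from 0.928 and 1.75 FPKM to 38.9 and 59.2 FPKM (log2 change 4.41, adjusted p = 1.84e-07), and the centromere histone gene Cenpa from 33.2 and 29.8 FPKM to 292 and 275 FPKM (log2 change 3.13, adjusted p = 5.17e-07). Sycp3 was low at both oocyte stages, at 1.12 FPKM at GV and 0.787 at MII. Mad2l1 and Cenpa had been at 248 and 245 FPKM at GV, and their 2-cell levels too were above those of both oocyte stages. Mos (chromosome 4, 3797805 to 3799252, mm9), the kinase upstream of ERK that holds the MII arrest, fell from 276 and 261 FPKM to 16.8 and 15.6 FPKM (log2 change -3.97, SE 0.22, adjusted p = 2.73e-08). Fbxo5, the EMI1 inhibitor of the anaphase-promoting complex, fell from 88.3 and 152 FPKM to 7.93 and 14.6 FPKM (log2 change -3.31, adjusted p = 2.07e-06). Ccnb1, cyclin B1, was at 325 and 293 FPKM in the zygote and 401 and 393 FPKM in the 2-cell embryo (log2 change 0.36, adjusted p = 0.0157), whereas in wild type it fell with a log2 change of -1.86. The call on Ccnb1 ended without the mean-variance trend of the fit (adjusted p = 0.0828) and with quantile normalization (0.0564). It also ended without zygote library 2 (log2 change 0.29) and without 2-cell library 1 (0.35) or 2 (0.38). The difference of Ccnb1 from wild type was 2.22 (adjusted p = 2.83e-07).

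Among 50 genes of the G1/S transition and DNA replication, 16 rose and 23 fell (median -0.50). Gmnn, the inhibitor of replication licensing geminin, rose from 6.63 and 5.56 FPKM to 93.3 and 101 FPKM (log2 change 3.79, adjusted p = 2.44e-07). Orc6, a subunit of the origin recognition complex, rose from 14.7 and 14.3 FPKM to 103 and 115 FPKM (log2 change 2.82, adjusted p = 6.81e-08), and E2f5, a repressor of E2F targets, from 72.2 and 64.8 FPKM to 418 and 478 FPKM (log2 change 2.69, adjusted p = 1.58e-08). Of the helicase subunit genes, Mcm5 fell from 115 and 111 FPKM to 10.3 and 9.73 FPKM (log2 change -3.37, adjusted p = 2.36e-09) and Mcm3 from 22.4 and 14.4 FPKM to 2.64 and 3.78 FPKM (log2 change -2.18, adjusted p = 0.000149). Ccne1, cyclin E1, was at 0.645 and 0.101 FPKM in the zygote and 0.311 and 0.558 FPKM in the 2-cell embryo, below the rule, and did not pass (adjusted p = 0.859). In wild type Ccne1 rose from a mean of 0.762 to 199 FPKM, a difference between the genotypes of -6.73 (adjusted p = 1.24e-07).

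Cytosolic ribosomal protein genes fell in 43 of 83 cases and rose in 6, with a median of -0.80. In wild type the same genes had a median of 1.36. By the interaction test the change was lower in the labelled Btg4-/- libraries for 64 of 83 and higher for 3 (Rpl22, Rps2 and Rps15a). Over all genes it was lower for 23.7% and higher for 25%. Rpl6 fell from 60.2 and 63.5 FPKM to 9.92 and 7.91 FPKM (log2 change -2.67, adjusted p = 5.54e-08), while in wild type it went from 17.5 to 35.6 FPKM. Rpl21 fell from 46.5 and 52.3 FPKM to 7.77 and 8.53 FPKM (log2 change -2.46, adjusted p = 9.41e-06). Against the list, Rps2 rose from 431 and 394 FPKM to 3528 and 3296 FPKM (log2 change 3.05, adjusted p = 7.15e-10) and Rplp2, of the ribosome stalk, from 545 and 477 FPKM to 1469 and 1405 FPKM (log2 change 1.49, adjusted p = 0.000226). The summed level of the list hardly moved, from 17190 and 16960 FPKM to 17910 and 16510 FPKM. Processed pseudogenes share sequence with many of these genes, so values of single members are uncertain.

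Ribosome biogenesis genes fell in 44 of 67 cases, the highest share among the lists other than cell markers, with 6 rises and a median of -1.10. Nop56, of the box C/D particles that modify rRNA, fell from 85.5 and 193 FPKM to 12.2 and 17.7 FPKM (log2 change -3.04, adjusted p = 0.00132). Gnl2, a GTPase of large subunit assembly, fell from 17.2 and 24.8 FPKM to 1.35 and 3.54 FPKM (log2 change -2.73, adjusted p = 0.000231). Npm3, a nucleolar chaperone, rose from 5.76 and 6.84 FPKM to 115 and 92.9 FPKM (log2 change 3.84, adjusted p = 4.05e-06), and Nip7, an assembly factor, from 4.62 and 7.8 FPKM to 30.2 and 28 FPKM (log2 change 2.1, adjusted p = 1.85e-05). Translation factors fell in 23 and rose in 11 of 52 (median -0.46). Eif3c, a core subunit of initiation factor 3, fell from 23.3 and 27.7 FPKM to 0.474 and 1.53 FPKM (log2 change -3.78, adjusted p = 1.48e-05). Subunits of the exchange factor eIF2B split: Eif2b4 fell from 66 and 88.6 FPKM to 9.14 and 7.04 FPKM (log2 change -3.1, adjusted p = 2.92e-07) and Eif2b1 rose from 24.7 and 19.3 FPKM to 138 and 134 FPKM (log2 change 2.59, adjusted p = 3.33e-08). Eif4g2, an initiation factor of cap-independent translation, rose from 2.48 and 3.89 FPKM to 19.8 and 19.8 FPKM (log2 change 2.33, adjusted p = 3.2e-06).

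Oxidative phosphorylation subunits fell in 29 and rose in 10 of 76 (median -0.62), and proteasome subunits fell in 21 and rose in 7 of 36 (median -0.96). Ndufa8, a subunit of complex I, fell from 63.4 and 67.1 FPKM to 11.6 and 6 FPKM (log2 change -2.82, adjusted p = 1.29e-05). Ndufab1, the acyl carrier subunit, rose from 224 and 202 FPKM to 567 and 446 FPKM (log2 change 1.24, adjusted p = 5.18e-05), and Cox8a of complex IV from 355 and 241 FPKM to 892 and 895 FPKM (log2 change 1.61, adjusted p = 4.87e-05). The proteasome ATPase genes were not of one direction. Psmc4 fell from 39 and 42.7 FPKM to 3.69 and 2.07 FPKM (log2 change -3.46, adjusted p = 9.42e-07) and Psmc5 from 179 and 196 FPKM to 19.3 and 22.6 FPKM (log2 change -3.11, adjusted p = 5.49e-07), whereas Psmc6 rose from 3.54 and 3.65 FPKM to 19.8 and 36.5 FPKM (log2 change 2.6, adjusted p = 4.26e-06). Psmd3, a lid subunit, rose from 7.85 and 7.38 FPKM to 52.7 and 47.7 FPKM (log2 change 2.57, adjusted p = 7.68e-07). In wild type the oxidative phosphorylation list had a median of 0.00 and the proteasome list -0.92.

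Genes of RNA polymerase II and the general factors rose in 16 and fell in 19 of 62. These shares, 25.8% and 30.6%, are near the 21.6% and 33.4% of all genes. The median was -0.05, and it was 0.15 with median-of-ratios scaling and 0.09 with quantile normalization. Polr2c, a core subunit, rose from 17.6 and 19.6 FPKM to 509.8 and 429.8 FPKM (log2 change 4.58, adjusted p = 1.66e-10), and Taf13, of TFIID, from 4.31 and 5.41 FPKM to 51.3 and 66 FPKM (log2 change 3.34, adjusted p = 4.28e-08). Splicing genes fell in 25 and rose in 10 of 58 (median -0.53). The largest rises there were in the small particle protein genes Snrpg and Snrpf and in Magoh, of the exon junction complex. Snrpg rose from 81 and 80.9 FPKM to 2171 and 1882 FPKM (log2 change 4.63, adjusted p = 3.6e-10) and Snrpf from 32.6 and 31.3 FPKM to 284 and 273 FPKM (log2 change 3.08, adjusted p = 1.21e-06). Magoh rose from 102 and 92.8 FPKM to 655 and 657 FPKM (log2 change 2.74, adjusted p = 3.86e-08). Among the falls were genes of large core proteins, Snrnp200 from 11.9 and 13.8 FPKM to 0.332 and 1.31 FPKM (log2 change -2.98, adjusted p = 4.65e-06) and Prpf8 from 27.7 and 22.6 FPKM to 2.39 and 4.18 FPKM (log2 change -2.63, adjusted p = 5.75e-05).

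Canonical histone genes, whose mRNAs end in a stem loop in place of a tail, rose in 24 of 53 cases and fell in 1, with a median of 0.93 against -0.22 in wild type. Hist2h2bb rose from 4 and 4.45 FPKM to 35.1 and 49.9 FPKM (log2 change 3.04, adjusted p = 2.14e-05). Hist2h2ac was listed at 0 in both zygote libraries and at 40.6 and 33.5 FPKM at 2-cell (adjusted p = 5.74e-08). The 1 fall was Hist1h1d, at 1.73 and 1.91 FPKM in the zygote and 0.327 and 0.14 FPKM in the 2-cell embryo (adjusted p = 0.00152). Histone copies are close in sequence, and values of single genes are uncertain. Chromatin enzymes rose in 13 and fell in 16 of 50, 26% and 32%, near the 21.6% and 33.4% of all genes. Their median was -0.10, turning to 0.04 with median-of-ratios scaling and 0.07 with quantile normalization. Asf1b, a histone chaperone, rose from 29.8 and 32.7 FPKM to 165 and 173 FPKM (log2 change 2.4, adjusted p = 2.55e-07), and Suz12, of Polycomb complex 2, from 7.33 and 10.5 FPKM to 40.8 and 51.7 FPKM (log2 change 2.26, adjusted p = 2.86e-05). Kdm2b, a demethylase of variant Polycomb complex 1, fell from 44.8 and 44.1 FPKM to 6.72 and 6.19 FPKM (log2 change -2.61, adjusted p = 5.11e-05).

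Genes of p53 and apoptosis rose in 13 and fell in 6 of 31 (median 0.66, and 0.66 in wild type as well). Trp53 itself fell from 37.5 and 28.9 FPKM to 4.17 and 4.37 FPKM (log2 change -2.69, adjusted p = 1.11e-06). Bcl2l10, a BCL2 relative of the oocyte, rose from 1053 and 971 FPKM to 4025 and 3863 FPKM (log2 change 1.96, adjusted p = 8.14e-08). Cdkn1a, the p21 target of p53, was at 2.49 and 1.35 FPKM in the zygote and 0.532 and 1.83 FPKM in the 2-cell embryo and did not pass (adjusted p = 0.412), while in wild type it rose from a mean of 2.63 to 25.9 FPKM (difference -3.37, adjusted p = 0.000522). Of 34 heat shock and stress response genes, 14 fell and 5 rose (median -0.74). Hspa5, the chaperone BiP of the endoplasmic reticulum, fell from 86.8 and 94.3 FPKM to 6.46 and 9.96 FPKM (log2 change -3.34, adjusted p = 1.43e-07), and Cct3, of the tubulin and actin folding chaperonin, from 106 and 100.4 FPKM to 14.9 and 11 FPKM (log2 change -2.91, adjusted p = 4.16e-08). The rises were Hspd1 (4.31 and 6.65 FPKM in the zygote and 17.7 and 22.3 FPKM in the 2-cell embryo), its cofactor Hspe1 (262 and 241 FPKM in the zygote and 462 and 409 FPKM in the 2-cell embryo), Ddit4 (40.4 and 35.4 FPKM in the zygote and 109.7 and 106 FPKM in the 2-cell embryo), Hsf1 (20.9 and 19.8 FPKM in the zygote and 33.1 and 36.5 FPKM in the 2-cell embryo) and Dnaja1 (27.3 and 28.3 FPKM in the zygote and 41.3 and 42.6 FPKM in the 2-cell embryo). Without any 1 of the 4 libraries Dnaja1 did not pass (adjusted p = 0.0734 to 0.111).

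**Figure D4:**
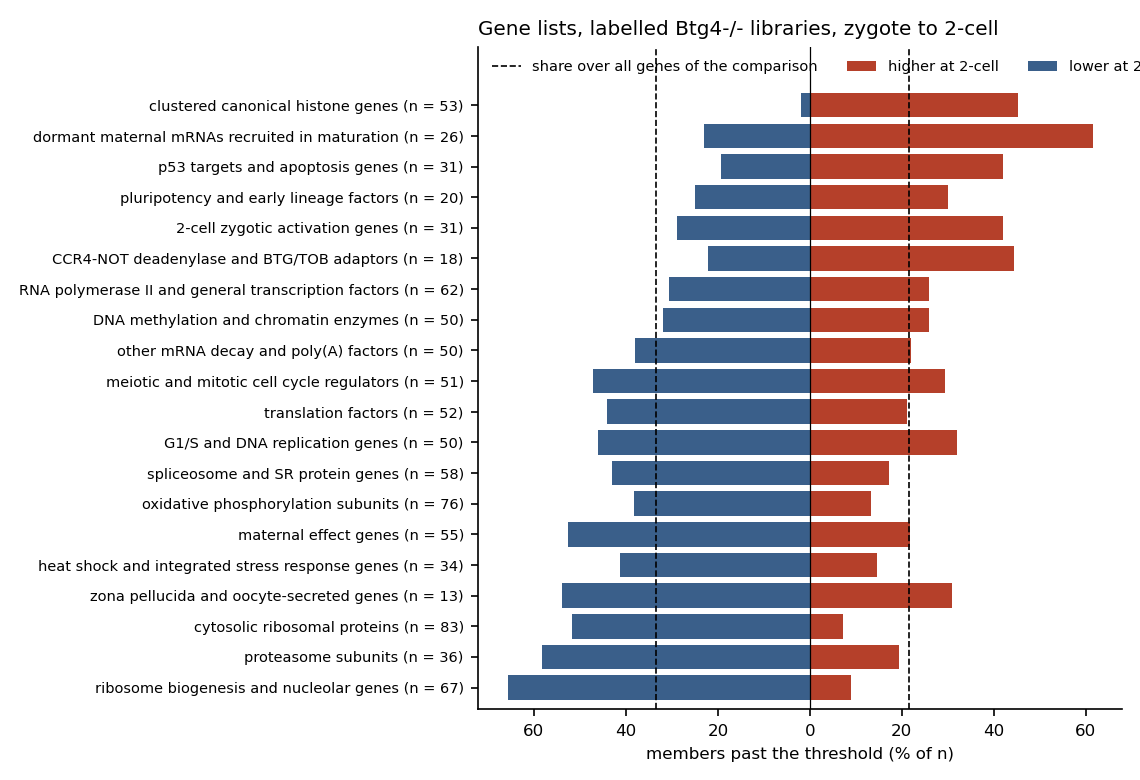
Share of each gene list's measured members that passed the threshold as higher (red, to the right) or lower (blue, to the left) at 2-cell than in the zygote, in percent, in the labelled Btg4-/- libraries, ordered by median change. Dashed lines give the shares over all 10277 genes, 21.6% higher and 33.4% lower.

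The embryo's own transcripts formed a separate question, since activation of the genome falls at this stage. Of 55 zygotic activation genes found in the files, 31 met the rule and 24 did not. Genes near 0 in the zygote could meet it only through their 2-cell level, so their rises are tied to the choice and test nothing. The 24 genes that stayed below it are left out of the counts and the median. Of the 31 genes, 13 rose and 9 fell. Their median was 0.21 against 3.06 in wild type, and it was -0.26 without 2-cell library 1. The change was lower in the labelled Btg4-/- libraries than in wild type for 25 of the 31 and higher for 4 (Pramef12, Zfp750, Kdm6b and Zfp277). Over all genes it was lower for 23.7% and higher for 25%. Tmem92, a marker of the 2-cell transcription programme, rose from 0.0384 and 0.385 FPKM to 8.57 and 8.91 FPKM (log2 change 3.02, adjusted p = 0.000259), against a wild-type 2-cell mean of 165 FPKM. The multicopy gene Gm4340 was at 0.000101 and 0.000206 FPKM in the zygote and at 9.92 and 8.14 FPKM at 2-cell (adjusted p = 6.76e-07), against 49.7 FPKM. BB287469, a further multicopy gene, went from 0.129 and 0 FPKM to 6.3 and 7.6 FPKM (adjusted p = 2.9e-06), against 95.8 FPKM. These transcripts were above the zygote in both libraries, and their 2-cell levels lay below the wild-type mean. Hspa8 and Arg2, which the zygote already held, fell from 686 and 764 FPKM to 123 and 118 FPKM (log2 change -2.58, adjusted p = 4.16e-08) and from 99.7 and 105 FPKM to 31.3 and 39.7 FPKM (log2 change -1.51, adjusted p = 2.26e-06).

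Several standard markers of the activation burst did not pass. Zscan4d was at 1.2 and 0.86 FPKM in the zygote and 0.322 and 0.415 FPKM in the 2-cell embryo (adjusted p = 0.107), against a wild-type 2-cell mean of 12.2 FPKM. Kdm5b and Eif1a lie below the rule. Kdm5b, a demethylase of H3K4, stood at 0.462 and 0.52 FPKM in the zygote and 0.297 and 0.254 FPKM in the 2-cell embryo (adjusted p = 0.495), against 26.9 FPKM. For Eif1a the values were 0.105 and 0.33 FPKM in the zygote and 1.15 and 0.728 FPKM in the 2-cell embryo (adjusted p = 0.14), against 12.5 FPKM, and for Hspa1a 1.25 and 1.09 FPKM in the zygote and 0.35 and 0.188 FPKM in the 2-cell embryo (adjusted p = 0.0895), against 5.43 FPKM. Hspa1a passed as a fall with a pseudocount of 0.1 (adjusted p = 0.038) and in a fit on the 4 libraries alone (0.0238). The 4 markers of the 2-cell list that rose were all low: Zscan4c at 2.22 and 1.42, Zscan4f at 2.16 and 2.23, Tdpoz4 at 1.2 and 5.72 and Zfp352 at 0.353 and 3.32 FPKM in the 2-cell libraries, against wild-type means of 17.7, 26.2, 72.6 and 27.1 FPKM. Tdpoz4 and Zfp352 were listed at 0 in both zygote libraries and so met the rule only through the 2-cell libraries. Neither passed in a fit on the 4 libraries alone (adjusted p = 0.107 and 0.234). Zfp352 also did not pass in a fit on the 8 zygote and 2-cell libraries (0.114). The call on Zfp352 ended without 2-cell library 2 (adjusted p = 0.221) and without zygote library 1 (0.0790) or 2 (0.0788). Members of the Zscan4 and Tdpoz families share reads. Myc was listed at 0 in both zygote libraries and in 2-cell library 1, stood at 0.178 FPKM in 2-cell library 2, and entered no test.

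A wider set was taken from the wild-type libraries. In wild type, 774 genes were under 1 FPKM at GV, MII and zygote and at least 2-fold higher at 2-cell past the threshold. That choice uses wild-type levels only. In the labelled Btg4-/- libraries 144 of them (18.6%) met the rule, 72 (9.30%) rose and 23 fell, against 18.3% and 28.2% of all 12311 genes tested. Those shares are not a like baseline. The 774 genes were chosen as high at wild-type 2-cell, and their median in the labelled Btg4-/- zygote was 0.0717 FPKM, which leaves little room for a fall. Their median level at 2-cell was 0.169 FPKM in the labelled Btg4-/- libraries. In wild type it was 3.53 FPKM, at the stage whose level chose the set. Conversely, 155 of the genes that rose at least 2-fold in the labelled Btg4-/- libraries were under 1 FPKM at their GV, MII and zygote stages. Those 155 genes met the rule only through their 2-cell level. Of them, 69 also rose in wild type and 15 fell, and 37 belong to the 774 genes. Among all 2219 risen genes, without the 2-fold limit, 41.2% also rose in wild type and 24.8% fell. Whether the overlap is particular to the 155 genes was not tested.

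Pluripotency and early lineage factors rose in 6 and fell in 5 of 20 (median 0.29, and -0.07 without 2-cell library 1). Lin28a, an RNA-binding regulator of let-7, rose from 10.9 and 8.45 FPKM to 74.2 and 82.8 FPKM (log2 change 2.9, adjusted p = 6.29e-08), and Klf4 from 0 and 0.435 FPKM to 4.47 and 4.39 FPKM (log2 change 2.18, adjusted p = 0.000282). Pou5f1, the OCT4 gene, stood at 481 and 406 FPKM in the zygote and 425 and 413 FPKM in the 2-cell embryo and did not pass (adjusted p = 0.628), although with quantile normalization it passed as a fall (0.0216). Klf17, Dppa2 and Sall4 fell, Klf17 from 363 and 369 FPKM to 174 and 191 FPKM (log2 change -1.0, adjusted p = 2.21e-05), Dppa2 from 51.3 and 50 FPKM to 22.4 and 23.6 FPKM (log2 change -1.11, adjusted p = 0.000518) and Sall4 from 11.2 and 11.8 FPKM to 4.54 and 5.71 FPKM (log2 change -1.04, adjusted p = 0.000175). The other falls were the nuclear receptor genes Esrrb (7.55 and 7.9 FPKM in the zygote and 1.13 and 3.55 FPKM in the 2-cell embryo, adjusted p = 0.00368) and Nr5a2 (6.57 and 7.56 FPKM in the zygote and 2.91 and 3.29 FPKM in the 2-cell embryo, adjusted p = 0.0173). The call on Esrrb ended in a fit on the 4 libraries alone (adjusted p = 0.101), and that on Nr5a2 without zygote library 2 (0.0922) or 2-cell library 1 (0.0727).

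The step was also set against that of wild type, which shares no library with it. Over the same 10277 genes, 2468 rose (24.0%) and 3467 fell (33.7%) in wild type. Of the 2219 genes that rose in the labelled Btg4-/- libraries, 914 rose in wild type too (41.2% of the former and 37.0% of the latter) and 551 fell. Of the 3435 that fell, 1661 fell in wild type (48.4% and 47.9%) and 537 rose. By the interaction test the change was higher in the labelled Btg4-/- libraries for 2574 genes (25%) and lower for 2435 (23.7%).

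Among the genes named for a high positive difference, Pdcd6, a calcium-binding adaptor, went from 1.82 and 2.56 FPKM to 110.3 and 83.2 FPKM, against wild-type means of 18.3 and 1.59 FPKM (difference 7.87, adjusted p = 5.77e-08). Mitd1, which acts at abscission, went from 3.74 and 4.17 FPKM to 20.4 and 26 FPKM, against 71.7 and 2.01 FPKM (6.95, adjusted p = 4.76e-08). Pfdn4, a prefoldin subunit, went from 90.7 and 90.5 FPKM to 1151 and 1171 FPKM, against 381 and 43.7 FPKM (6.81, adjusted p = 1.65e-09). Sft2d1, a vesicle transport gene, went from 11.3 and 9.74 FPKM to 322 and 370.4 FPKM, against 98.4 and 26.5 FPKM (6.75, adjusted p = 1.39e-09). At GV the labelled Btg4-/- means of these genes were 54.6, 18.5, 1426 and 703 FPKM.

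The 6 genes with the lowest negative differences by the naming rule rose in wild type from means of at most 1.05 FPKM. Cd63, a tetraspanin of late endosomes, was at 2.26 and 1.03 FPKM in the zygote and 0 and 0 FPKM in the 2-cell embryo, against a wild-type 2-cell mean of 182 FPKM (interaction adjusted p = 7.13e-09). Prdx4, a peroxiredoxin of the endoplasmic reticulum, was at 7.75 and 8.82 FPKM in the zygote and 6.63 and 0.772 FPKM in the 2-cell embryo, against 61.7 FPKM (adjusted p = 9.91e-06). Alppl2, an alkaline phosphatase, was at 3.33 and 4.27 FPKM in the zygote and 1.05 and 0.614 FPKM in the 2-cell embryo, against 100.2 FPKM (difference -7.04, adjusted p = 1.43e-07). The 2-cell libraries differed from each other in Prdx4, which passed as a fall without 2-cell library 1 (adjusted p = 0.00179). Mt1, a metallothionein below the rule, was at 1.28 and 0 FPKM in the zygote and 0 and 0 FPKM in the 2-cell embryo, against 144 FPKM (adjusted p = 0.000101). Gcsh, of the glycine cleavage system, was at 5.5 and 2.2 FPKM in the zygote and 5.3 and 6.08 FPKM in the 2-cell embryo, against 246 FPKM (-6.94, adjusted p = 1.08e-06). Prps1, which makes phosphoribosyl pyrophosphate, was at 1.2 and 3.2 FPKM in the zygote and 4.61 and 2.32 FPKM in the 2-cell embryo, against 283 FPKM (-6.77, adjusted p = 3.63e-06).

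**Figure D5:**
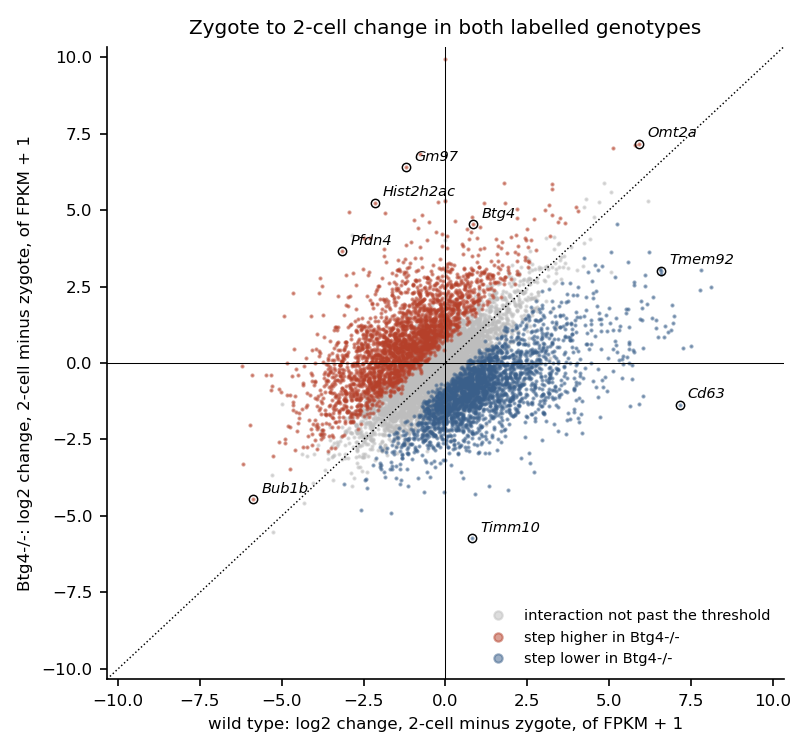
Log2 change of FPKM + 1 from zygote to 2-cell in wild type (horizontal) and in the labelled Btg4-/- libraries (vertical), 1 point per gene of 10277; the dotted line marks equal change. Colours mark genes whose change was higher (red, 2574) or lower (blue, 2435) in the labelled Btg4-/- libraries by the interaction test.

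Markers of other cells that a pool of embryos could carry were mostly below the rule, with the granulosa marker Cyp19a1, an alpha globin and sperm genes as exceptions. The part of such cells in the results was not tested. Of 16 granulosa and cumulus markers 1 met the rule, 6 (among them Amh, Foxl2 and Lhcgr) were at 0 in all 4 libraries, and their summed level was 2.4 and 1.04 FPKM in the zygote and 3.71 and 2.53 at 2-cell. That 1 was Cyp19a1, aromatase, at 0.391 and 0.571 FPKM in the zygote and 2.51 and 1.17 FPKM in the 2-cell embryo (adjusted p = 0.0269); the call ended without zygote library 1 (0.124) or 2 (0.0653) or 2-cell library 1 (0.202). Cyp19a1 also did not pass in fits on the 8 zygote and 2-cell libraries (adjusted p = 0.0842) and on the 4 libraries alone (0.111). Of 13 sperm markers 3 met the rule and 8 were at 0 in all 4 libraries, Prm1 and Tnp1 included, with a sum of 8.78 and 9.22 FPKM in the zygote and 4.49 and 9.95 at 2-cell. Prm2, a protamine, was at 3.52 and 4.01 FPKM in the zygote and 0 and 1.99 FPKM in the 2-cell embryo (adjusted p = 0.0471). That call ended under most alternatives. Among them were median-of-ratios scaling (0.0818), quantile normalization (0.0639), a pseudocount of 0.1 (0.122), no filter (0.0926) and a replicate block (0.058). It also ended in fits on the 8 zygote and 2-cell libraries (0.134) and on the 4 libraries alone (0.181). With 1 library left out the log2 change of Prm2 ran from -2.25 to -0.67. Of 10 blood markers found 1 met the rule: Hba-a1, an alpha globin, was listed at 0 in both zygote libraries and at 7.68 and 7.38 FPKM at 2-cell (adjusted p = 0.000165), with wild-type means of 1.01 and 9.29 FPKM. All 10 oocyte markers met the rule, 7 fell and 1 (Oosp1) rose. Malat1, a nuclear long non-coding RNA, rose from 0.935 and 1.32 FPKM to 3.15 and 3.2 FPKM (adjusted p = 0.00681, 0.0561 without zygote library 1). Rn45s, the rRNA precursor, was at 8136 and 7933 FPKM in the zygote and 6414 and 6654 FPKM in the 2-cell embryo and did not pass (adjusted p = 0.275).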

How the data were processed

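Per the submitters' processing notes, CASAVA 1.8, TopHat and Cufflinks were used and the build is mm9; no version of TopHat or Cufflinks is given. The authors deposited 1 table of FPKM per library, with 23813 loci. FPKM is already scaled to library size and transcript length, holds no counts, and gives each gene as a share, so no count test was used.

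Loci with the same symbol were summed (260 of 23309 symbols). Values entered limma 3.58.1 (R 4.3.3) as log2(FPKM + 1), with a mean-variance trend and 1 mean per group over all 16 Btg4-/- and wild-type libraries of the Btg4 study (residual degrees of freedom: 8). Genes with a mean of at least 1 FPKM in any of the 8 groups were tested, 12311 in all. Tests were two-sided, with Benjamini-Hochberg adjusted p over all of them and a threshold of 0.05. The interaction is the labelled Btg4-/- step minus the wild-type step. The added 1 makes log2 changes of low genes smaller than the true ones. Alternatives were another pseudocount, other filters, median-of-ratios and quantile scaling, smaller fits, a replicate block and leaving out each library.

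Named genes are the 10 largest rises and 10 largest falls with at least 20 FPKM in the higher group and no overlap, up to 3 per direction and list, the 6 largest differences between genotypes each way (these and the largest changes without predicted or clone-named symbols, such as those that start with Gm), and a fixed set around Btg4; others are named as chosen after their values were seen, or because a count of 5 or fewer called for them. A few genes that this rule names are not reported here. The members and lists were chosen with earlier results of these data known. Transcript ends are from GENCODE M21 (GRCm38) by symbol, promoters from RefSeq (GRCm38.p6), and coordinates from the files (mm9).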

Additional observations from a re-analysis of the deposited data

Results flagged for a closer look

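For the genes below the change from zygote to 2-cell differed between the labelled Btg4-/- and wild-type libraries by limma's interaction test (adjusted p below 0.05). Each value is the difference of the log2 changes, labelled Btg4-/- minus wild type. Some values depend on the pseudocount and are no fold, since 1 or more zygote or 2-cell libraries are listed at 0: Timm10, Tmem39b, Ttc5, Hist2h2ac, BB287469, Zfp352, Tdpoz4, Eif1a, Cd63, Prdx4, Mt1 and Gcsh. The same holds for Gm4340, which was close to 0 in every zygote library.

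Among the largest rises and falls, the change was higher by 3.71 for Btg4, 1.24 for Omt2a, 1.34 for Omt2b, 1.9 for Cks2, 7.59 for Smim11, 4.11 for Gtf2a2, 2.41 for Mphosph6, 5.31 for Dpy30 and 1.42 for Bub1b. It was lower, at -6.52 for Timm10, -3.25 for Tmem39b, -2.24 for Ttc5, -3.57 for Nck1, -4.18 for Spint1 and -1.69 for Xrcc1.

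For deadenylation, decay and tail factors, the change was higher by 2.18 for Cnot6l, 1.85 for Cnot7, 1.81 for Cnot11, 1.98 for Btg2, 4.48 for Pabpn1l, 3.13 for Lsm1, 1.73 for Papd4 and 1.83 for Lsm14a. It was lower, at -1.72 for Cnot8 and -2.23 for Btg1.

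Among oocyte-secreted and maternal effect genes, the change was higher by 7.61 for Gm97, 4.58 for Oosp1, 3.68 for Plac1l, 1.53 for Kit, 1.25 for Gdf9 and 1.4 for Dnmt1. Negative differences were -2.83 for Zp2, -1.39 for Zp3, -1.36 for Astl, -1.79 for Fgf8 and -1.89 for Khdc3.

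For the cell cycle, replication and dormant mRNAs, the change was higher by 2.22 for Ccnb1, 3.41 for Mad2l1, 5.23 for Sycp3, 1.0 for Orc6, 1.74 for E2f5, 1.87 for Hprt, 5.3 for Slbp, 1.66 for Tet3 and 3.16 for Dazl. It was lower, at -0.89 for Mos, -1.91 for Fbxo5, -1.86 for Mcm5, -1.35 for Mcm3 and -6.73 for Ccne1.

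Among ribosomes, translation, mitochondria and the proteasome, the change was higher by 1.13 for Rps2, 3.95 for Npm3, 4.11 for Eif2b1, 1.8 for Ndufab1 and 4.32 for Psmc6. It was lower, at -3.64 for Rpl6, -3.48 for Rpl21, -1.06 for Rplp2, -2.27 for Eif3c, -1.76 for Eif2b4 and -1.49 for Psmc4.

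For transcription, splicing, histones and chromatin, the change was higher by 0.92 for Polr2c, 0.83 for Taf13, 1.18 for Snrpg, 2.87 for Snrpf, 7.4 for Hist2h2ac, 4.48 for Hist2h2bb, 1.98 for Asf1b and 2.24 for Suz12.

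Among p53, stress and pluripotency, the change was higher by 1.55 for Bcl2l10, 0.83 for Ddit4, 2.2 for Hspd1, 1.25 for Hspe1, 3.14 for Dnaja1 and 1.59 for Lin28a. It was lower, at -3.37 for Cdkn1a, -3.51 for Hspa5, -1.95 for Cct3, -2.12 for Dppa2 and -1.95 for Nr5a2.

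For zygotic activation, the change was lower, at -3.53 for Zscan4d, -2.52 for Zscan4c, -3.03 for Zscan4f, -3.5 for Zfp352, -4.21 for Tdpoz4, -4.18 for Kdm5b, -2.76 for Hspa1a, -2.85 for Eif1a, -3.57 for Tmem92, -2.27 for Gm4340, -3.69 for BB287469, -1.91 for Hspa8 and -0.87 for Arg2.

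Among the genes named for their difference, and one cell marker, the change was higher by 7.87 for Pdcd6, 6.95 for Mitd1, 6.81 for Pfdn4, 6.75 for Sft2d1 and 2.47 for Cyp19a1. Negative differences were -8.52 for Cd63, -7.25 for Prdx4, -7.04 for Alppl2, -7.02 for Mt1, -6.94 for Gcsh and -6.77 for Prps1.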

How the results depend on the processing

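Both counts of called genes stayed within 1.5 times under every alternative run: 1691 to 2510 genes rose and 2372 to 3489 fell. Leaving out 1 library gave 1833 to 2094 rises and 2678 to 2974 falls, and for the interaction 2264 to 2527 higher and 2087 to 2360 lower. Median-of-ratios scaling, added after the data were seen, moved the shares lower and higher at MII to 71.5% and 54.8%. These list medians changed sign: RNA polymerase II (0.15 with median-of-ratios scaling, 0.090 after quantile normalization, -0.11 to 0.00081 with 1 library left out) and chromatin enzymes (0.042 and 0.075 with these scalings). With 1 library left out the medians ran from -0.26 to 0.39 for zygotic activation, -0.075 to 0.39 for pluripotency and -1.28 to 0.32 for sperm markers, each lowest or highest without 2-cell library 1. Genes that were not called also changed sign. With 1 library left out Ccne1 ran from -0.20 to 0.38, with -0.038 without 2-cell library 2, and Pou5f1 from -0.20 to 0.045. Tet3 ran from -0.055 to 0.17, with -0.0016 without 2-cell library 1, and Dazl from -0.21 to 0.060. Median-of-ratios scaling gave 0.13 for both Pou5f1 and Dazl. The cause was not tested. Of 1857 values of single genes over all settings, 1797 kept direction and call, 48 lost the call, 4 gained it and 8 changed sign.

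Replicate numbers name the libraries only: deviations of same-numbered libraries correlated at -0.0148 to 0.126. With a replicate block 2261 genes rose and 3489 fell, and the interaction was higher for 2630 and lower for 2496. With 2 libraries per group and no read counts, changes of genes at a few FPKM cannot be told from counting error.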
